A study of Mus musculus with 8 samples.

Results

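U4 is a small nuclear RNA (snRNA) of the major spliceosome, the complex that removes most introns from pre-mRNA. Its members were all rows of the deposited small RNA table whose name begins with U4 followed by a dot, with no filter on level. There were 5 such rows of 964 in all: U4.46-201, U4.44-201, U4.41-201, U4.22-201 and U4.4-201. The row of U4atac, which serves the minor spliceosome, is not a member.

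Small RNA was sequenced from sorted GMLPs (granulocyte-monocyte-lymphoid progenitors) of mouse bone marrow, in 4 libraries from WT mice and 4 from iMLL-ENL mice. The iMLL-ENL mice carry an inducible form of MLL-ENL, a leukaemia fusion of the histone methyltransferase MLL with ENL. Cells of both groups, controls included, were kept for 3 days in culture with doxycycline (DOX), the drug that switches on such transgenes. No source used here states the promoter of the transgene, the age of the mice or whether each library is from its own mouse, so the spread that p-values rest on may be technical. The table analysed here holds non-coding RNA only, so neither the markers of GMLPs nor the level of the fusion could be checked. In such bulk samples, a change in which cells make up the culture and a change in RNA per cell cannot be told apart.

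In the spliceosome cycle U4 pairs with U6, and the pair joins U5 in the tri-snRNP, the form in which U6 is brought to the intron. Helicase Brr2 then unwinds the pairing, U4 leaves, and U6 is free to pair with U2 and form the catalytic core. U1 recognises the start of the intron before this and is displaced by U6. U4, U1, U2 and U5 are made by RNA polymerase II and carry an Sm protein ring, whereas U6 is made by RNA polymerase III.

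None of the 5 U4 row names matched a transcript name of GENCODE release M21, the annotation at hand for build GRCm38, so their positions and sequences are not printed.

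Every U4 row was higher in iMLL-ENL than in WT, with no overlap between the groups in any of the 5 rows. Of all 964 rows, 29.3% had each iMLL-ENL library above each WT library. Levels are in RPM as deposited, reads scaled to 1000000 per library, with no division by the length of a row. The libraries were made with a miRNA kit. Whether the reads come from whole snRNAs or from fragments was not tested, so RPM may not follow the amount of snRNA. Within each library all values up to 50 RPM were whole multiples of 1 step (within 0.0055 RPM), taken here as 1 read, which is worth 0.108 to 0.169 RPM. In 2 libraries the smallest value above 0 was itself 1 step, while in the other 6 it was 2 to 7 steps, so the numbers of reads given here are estimates.

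U4.46-201, the row with most U4 reads, was at 18.8, 16.2, 18.1 and 23.0 RPM in WT replicates 1 to 4. In iMLL-ENL replicates 1 to 4 it was at 42.3, 63.0, 49.4 and 51.2 RPM. The lowest iMLL-ENL library lay well above the highest WT library. The means were 19.0 ± 2.9 and 51.5 ± 8.6 RPM (SD, n = 4), a ratio of 2.71. On the log2(RPM + 1) scale it rose by 1.39 ± 0.17 (SE, limma adjusted p = 0.0022).

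U4.44-201 was at 13.7, 10, 14.2 and 16.4 RPM in WT replicates 1 to 4. It was at 30.5, 57.2, 40.7 and 43.7 RPM in iMLL-ENL replicates 1 to 4. As in the first row, replicate 2 was the lowest WT library and the highest iMLL-ENL library. The means were 13.6 ± 2.7 and 43.0 ± 11 RPM (SD, n = 4), a ratio of 3.17, the largest of the 5 rows. Its log2 fold change, 1.58 ± 0.22 (SE), had a limma adjusted p of 0.0033.

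Both of these rows reached 10 RPM in all 8 libraries, so their entry into the test (10 RPM in at least 4 libraries) did not depend on the group in which they were high. Of the 633 rows that met this filter 20.4% were called higher in iMLL-ENL at an adjusted p under 0.05. By log2 fold change U4.44-201 ranked 5 and U4.46-201 ranked 13 among the 633.

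The other 3 rows did not reach 10 RPM in any library. U4.41-201 was at 4.62, 6.10, 3.55 and 3.78 RPM in the 4 WT libraries (replicates 1 to 4) and at 6.43, 7.76, 9.55 and 9.77 RPM in the 4 iMLL-ENL libraries. The groups nearly touched, at 6.10 RPM in WT replicate 2 and 6.43 RPM in iMLL-ENL replicate 1. The ratio of the means was 1.86.

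U4.22-201 was at 1.54, 2.34, 2.37 and 1.40 RPM in the 4 WT libraries (replicates 1 to 4) and at 3.15, 3.77, 3.18 and 2.88 RPM in the 4 iMLL-ENL libraries. Its ratio of means, 1.70, was the smallest of the 5 rows. U4.4-201, the row with fewest reads, was at 1.26, 0.65, 1.52 and 1.26 RPM in the 4 WT libraries (replicates 1 to 4) and at 2.23, 3.23, 3.30 and 2.76 RPM in the 4 iMLL-ENL libraries, a ratio of 2.46. WT replicate 2 was its lowest library, with an estimated 5 reads and an exact Poisson 95% interval of 1.62 to 11.7 reads, which covers counting error only.

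Fitted with all 964 rows and no filter, the 3 low rows had log2 fold changes of 0.77 ± 0.23 (U4.41-201, adjusted p = 0.035), 0.56 ± 0.18 (U4.22-201, adjusted p = 0.048) and 0.84 ± 0.18 (U4.4-201, adjusted p = 0.013) in limma. In that fit all 5 U4 rows were called higher, where 23.9% of all rows were. It was run on the deposited scale only, so the calls of the 3 low rows were not tried under another scaling. The authors' own test did not call these 3 rows, as given below. The median log2 fold change was 0.84 over the 5 U4 rows and 0.33 over the 964 rows. The added 1 RPM understates the change of rows this low: the ratio of means of U4.4-201 is near that of U4.46-201, while its log2 fold change is much smaller.

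**Figure D1:**
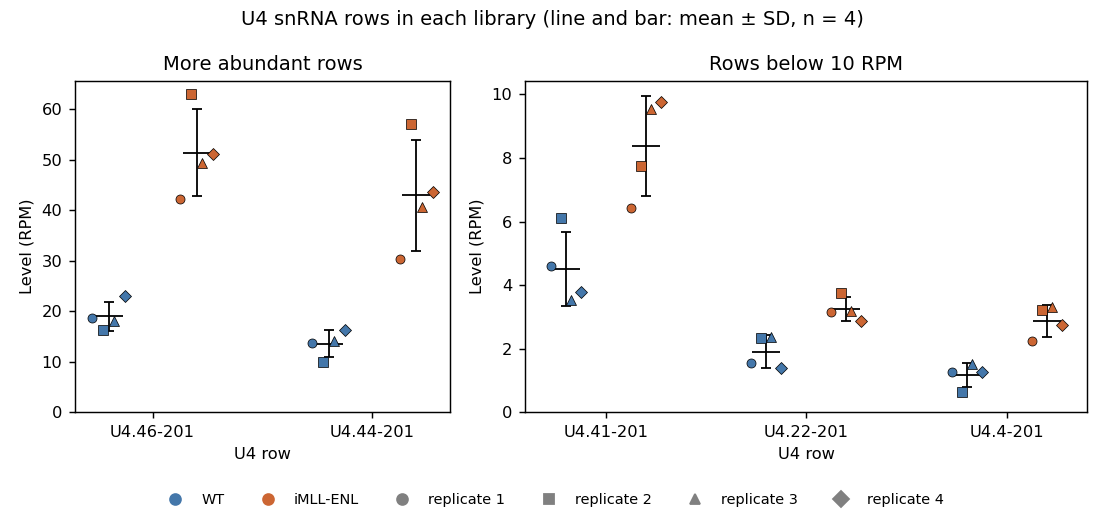
Level in RPM (linear axes from 0) of each U4 row in the 4 WT and 4 iMLL-ENL libraries, with the mean and SD as a line and bar. In each row the 4 iMLL-ENL points lie above the 4 WT points, with the gap widest in U4.46-201 and U4.44-201 and narrowest in U4.41-201.

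The reads behind these values set how far each row can be read. U4.46-201 had an estimated 530 reads over the 4 WT libraries and 1749 over the 4 iMLL-ENL libraries, and U4.44-201 had 376 and 1469. U4.41-201 had 128 and 283, U4.22-201 had 53 and 110, and U4.4-201 had 32 and 98. For U4.46-201 the coefficient of variation between libraries was 15.0% in WT and 16.7% in iMLL-ENL, above the 8.69% and 4.78% that counting alone would give. For U4.22-201 it was 26.9% and 11.6%, not above the 27.5% and 19.1% from counting, so any further spread in that row was not detectable at this depth.

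Most U4 reads belonged to U4.46-201 and U4.44-201. The share of U4.46-201 among U4 reads was 47.2% ± 2.1 (WT) and 47.4% ± 1.7 (iMLL-ENL; SD, n = 4). U4.44-201 held 33.6% ± 3.6 and 39.1% ± 2.6, U4.41-201 11.5% ± 4.1 and 7.80% ± 1.5, U4.22-201 4.88% ± 1.69 and 3.03% ± 0.49, and U4.4-201 2.89% ± 0.83 and 2.66% ± 0.32. U4.46-201 took nearly the same share in both groups.

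Whether the rows rose by different factors was tested within each library, each row against U4.46-201, a comparison added after the values were seen. The difference in mean log2 ratio (iMLL-ENL minus WT) was 0.22 for U4.44-201, -0.53 for U4.41-201, -0.64 for U4.22-201 and -0.09 for U4.4-201. The exact two-sided permutation p-values were 0.0857, 0.114, 0.0857 and 0.743, or 0.152, 0.152, 0.152 and 0.743 after adjustment over the 4 tests. Differences between the rows in their rise were therefore not shown. Whether the 5 rows share reads was not tested, and no source used here states how reads that match several rows were counted, so the rows may not be independent.

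Summed over its 5 rows, U4 was at 39.9, 35.3, 39.7 and 45.8 RPM in the 4 WT libraries (replicates 1 to 4) and at 84.6, 134.9, 106 and 110 RPM in the 4 iMLL-ENL libraries. The lowest iMLL-ENL library was above the highest WT library, and the 4 WT libraries lay within a factor of 1.30 of each other. The ratio of means was 2.71 and the rise 1.40 ± 0.16 (SE) on the log2 scale, at a limma adjusted p of 0.00026 over 67 families of rows summed by name. Of these families 26.9% were called higher in iMLL-ENL and 31.3% had each iMLL-ENL library above each WT library, and U4 had the second largest log2 fold change. The exact two-sided permutation p of the sum was 0.0286, the smallest that 4 libraries against 4 allow, and 0.0714 after adjustment over the sums of U4, U6, U5, U2 and U1. On this exact test alone U4 did not pass 0.05. After this adjustment no sum could pass unless further sums also had the smallest p. U2 had it too, while U6, U5 and U1 did not, so the adjusted outcome rests on those families as well.

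The scale of the libraries moves all rows together, so the rise of U4 was also read against the other rows. Over the 633 tested rows the median log2 fold change stood at 0.31, and U4 lay 1.10 above it. After TMM scaling (trimmed mean of M-values) that median was -0.08, U4 was at 1.01 ± 0.15 (SE, adjusted p = 0.0013 in limma).

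U6, which is carried by U4, had 193 rows, of which 87 passed the filter, 5 were called higher and 0 lower in limma. Of all tested rows 20.4% were called higher, the share against which the counts of the families below also stand. Which of the 193 rows are the U6 that pairs with U4 was not tested. Its sum was 1187, 6627, 747 and 1005 RPM in the 4 WT libraries (replicates 1 to 4) and 1671, 2082, 2011 and 1769 RPM in the 4 iMLL-ENL libraries. WT replicate 2 stood far above all other libraries, while U4 in that same library was the lowest of the 8. The log2 fold change of U6 was 0.27 ± 0.62 (SE, adjusted p = 0.77 in limma), and the ratio of means, 0.787, pointed the other way. Without WT replicate 2 U6 was at 0.96 ± 0.17 (adjusted p = 4.1e-06 in limma) and U4 at 1.34 ± 0.15. That library stood out by its U6 value itself, so this p-value does not establish a rise of U6. Without WT replicate 3 instead, U6 was at -0.087 (adjusted p = 0.91 in limma). With 1 library left out, the smallest p that the exact permutation test allows is 0.0571.

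U5, the other partner in the tri-snRNP, was at 1302, 2218, 724 and 909 RPM in the 4 WT libraries (replicates 1 to 4) and at 1757, 1827, 1707 and 1364 RPM in the 4 iMLL-ENL libraries. WT replicate 2 was again the highest of the 8 libraries, and the groups overlapped. Its log2 fold change was 0.49 ± 0.31 (SE, adjusted p = 0.21 in limma), and 0.80 ± 0.18 without WT replicate 2 (adjusted p = 0.00016 in limma). Without WT replicate 3 it was 0.26 (adjusted p = 0.47). As with U6, WT replicate 2 stood out by its U5 value itself, so the p-value without it does not establish a rise of U5. Scaling each library to the total of its rows gave 0.78 (adjusted p = 0.033), and a total that left out the 5 largest rows 0.81 (adjusted p = 0.017). Of its 7 tested rows 1 was called higher and 0 lower.

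U2, which pairs with the branch point of the intron, was at 2702, 2767, 3055 and 3478 RPM in the 4 WT libraries (replicates 1 to 4) and at 4421, 3770, 4332 and 5734 RPM in the 4 iMLL-ENL libraries. The groups did not overlap, and WT replicate 2 lay within the range of the other WT libraries. U2 rose, with a limma log2 fold change of 0.60 ± 0.16 (adjusted p = 0.016), with 12 of 19 tested rows higher and 0 lower. After TMM scaling U2 was at 0.20 (adjusted p = 0.40), and without WT replicate 1 its adjusted p was 0.056.

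U1, which marks the start of the intron, was at 8864, 15980, 7672 and 18178 RPM in the 4 WT libraries (replicates 1 to 4) and at 13710, 26067, 12674 and 18555 RPM in the 4 iMLL-ENL libraries. The highest library was 2.37-fold above the lowest in WT and 2.06-fold in iMLL-ENL, and the groups overlapped. The log2 fold change was 0.52 ± 0.34 (SE, adjusted p = 0.22 in limma), with 4 of 27 tested rows higher and 0 lower. It was 0.31 without WT replicate 3 (adjusted p = 0.47), 0.32 without iMLL-ENL replicate 2 (adjusted p = 0.49) and 0.12 after TMM scaling (adjusted p = 0.84). Scaled to a total without the 5 largest rows, U1 was called higher, at 0.84 (adjusted p = 0.048).

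**Figure D2:**
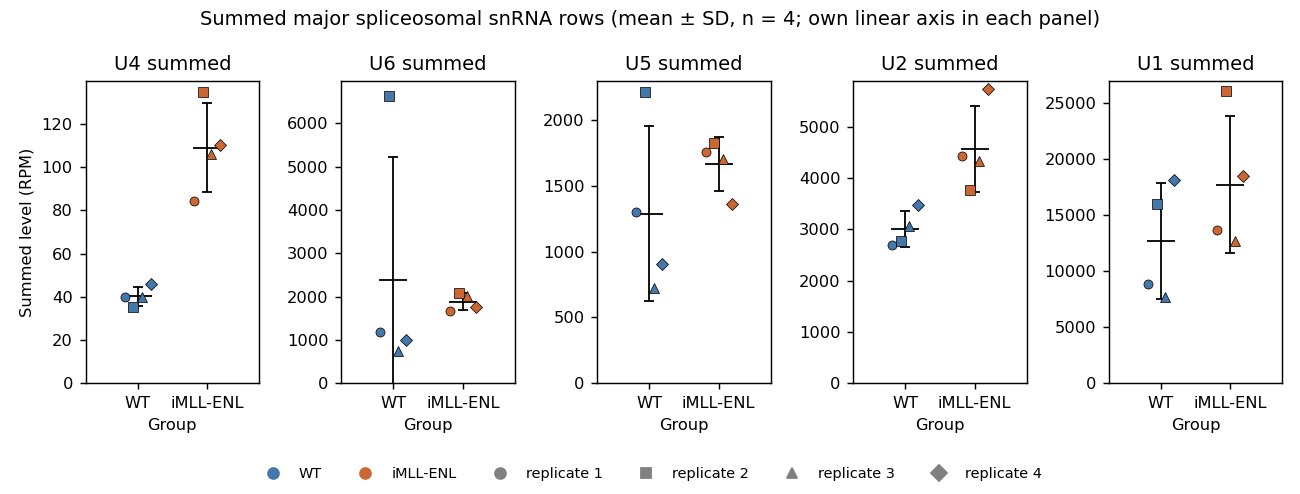
Summed level in RPM of U4, U6, U5, U2 and U1 in each library, with the mean and SD as a line and bar; each panel has its own linear axis from 0, and the SD bar of U6 in WT is cut there. U4 and U2 show 2 groups that do not overlap, and WT replicate 2 is the highest library for U6 and U5 and the lowest for U4.

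Among the most abundant rows of these families, U2.52-201 went from 249 ± 43 to 422 ± 75 RPM (SD, n = 4), a log2 fold change of 0.76 ± 0.18 with an adjusted p of 0.017 in limma. U6.736-201 was at 26.7 ± 25.1 and 29.0 ± 1.9 RPM, and WT replicate 2 gave its highest value, 64.2 RPM. U5.7-201 was at 328 ± 216 and 319 ± 45 RPM, and WT replicate 2 again stood highest, at 637 RPM against 159 to 311 RPM in the other WT libraries. U1.186-201 was at 830 ± 340 and 1142 ± 400 RPM. The log2 fold changes of these 3 rows, 0.47, 0.16 and 0.49, had adjusted p-values of 0.46, 0.79 and 0.30 in limma. Without WT replicate 2 they were 0.999, 0.54 and 0.64, with adjusted p-values of 0.00052, 0.047 and 0.11 in limma. That library held the highest value of U6.736-201 and of U5.7-201, so p-values without it do not establish a rise of these rows.

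A ratio of 2 families within a library does not depend on the scale of that library. The values below are RPM of U4 per 1000 RPM of the other family. They follow reads and not molecules, since the families differ in length and in number of rows. How fully each snRNA enters a library made with a miRNA kit was not tested either.

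U4 per 1000 RPM of U2 was 14.8, 12.8, 13.0 and 13.2 in the 4 WT libraries (replicates 1 to 4) and 19.1, 35.8, 24.5 and 19.2 in the 4 iMLL-ENL libraries. The WT libraries lay close together and below each of the iMLL-ENL libraries, which were more spread. The mean log2 ratio was higher by 0.83 ± 0.22 (SE) in iMLL-ENL, a fold of 1.78. The exact two-sided permutation p was 0.0286, the smallest that 4 libraries against 4 allow, and 0.0857 after adjustment over the 4 ratios.

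U4 per 1000 RPM of U1 was 4.50, 2.21, 5.18 and 2.52 in the 4 WT libraries (replicates 1 to 4) and 6.17, 5.17, 8.37 and 5.95 in the 4 iMLL-ENL libraries. The groups overlapped narrowly, at WT replicate 3 and iMLL-ENL replicate 2. The mean log2 ratio was higher by 0.90 ± 0.34 (SE) in iMLL-ENL, with an exact two-sided permutation p of 0.0571 (adjusted 0.0857).

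U4 per 1000 RPM of U5 was 30.7, 15.9, 54.9 and 50.4 in the 4 WT libraries (replicates 1 to 4) and 48.1, 73.8, 62.2 and 80.9 in the 4 iMLL-ENL libraries. WT replicates 3 and 4 lay above iMLL-ENL replicate 1. The mean log2 ratio was higher by 0.93 ± 0.44 (SE) in iMLL-ENL, with an exact two-sided permutation p of 0.0857 (adjusted 0.0857).

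U4 per 1000 RPM of U6 was 33.6, 5.33, 53.2 and 45.6 in the 4 WT libraries (replicates 1 to 4) and 50.6, 64.8, 52.8 and 62.4 in the 4 iMLL-ENL libraries. WT replicate 2 was far below all other libraries, and WT replicate 3 lay among the iMLL-ENL libraries. The mean log2 ratio was higher by 1.16 ± 0.77 (SE) in iMLL-ENL, with an exact two-sided permutation p of 0.0857 (adjusted 0.0857). Without WT replicate 2 the difference was 0.40 for U4 to U6, 0.57 for U4 to U5, 0.70 for U4 to U1 and 0.81 for U4 to U2.

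All 4 ratios were thus higher in iMLL-ENL on average, and none passed 0.05 after adjustment. A rise of U4 beyond that of U6, U5, U2 or U1 was not shown by the sums. After adjustment no ratio could pass unless others also reached the smallest p allowed, which only the ratio to U2 did. This test therefore could not decide the question for U2 alone. With the most abundant row of each family in place of its sum, the differences were 0.67 for U2, 0.94 for U1 and 1.27 for U5, each with an adjusted exact permutation p of 0.0381, and 0.93 for U6, with 0.143. These rows held only part of their families. Their WT means were 249 of 3001 RPM for U2, 830 of 12674 for U1, 328 of 1288 for U5 and 26.7 of 2392 for U6. With rows of a mean of 10 RPM or more summed, the adjusted exact permutation p was 0.0571 for U2 and for U1. For U5 it was 0.0857 and for U6 0.0762, so none passed 0.05. Of the reads of all 5 families, U4 took 0.283%, 0.128%, 0.325% and 0.194% in the 4 WT libraries (replicates 1 to 4) and 0.391%, 0.398%, 0.509% and 0.401% in the 4 iMLL-ENL libraries. These shares did not overlap between the groups and are a description with no test.

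**Figure D3:**
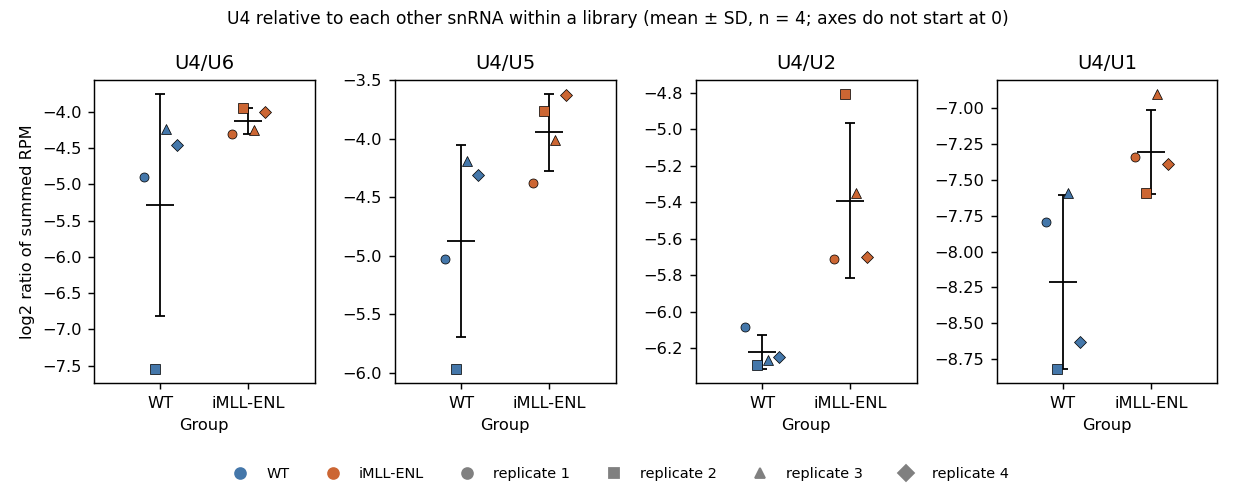
log2 ratio of summed U4 RPM to summed U6, U5, U2 and U1 RPM in each library, with the mean and SD as a line and bar; the axes do not start at 0. The groups separate for U2 and overlap for the others, and WT replicate 2 is the lowest library in all 4 panels.

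The minor spliceosome, which removes a rare class of introns, uses U11, U12, U4atac and U6atac in place of U1, U2, U4 and U6, and shares U5. U4atac, 1 row below the filter, had means of 4.99 ± 1.06 (WT) and 9.08 ± 1.27 RPM (iMLL-ENL; SD, n = 4), and as a family rose by 0.76 ± 0.17 log2 units (limma adjusted p = 0.011). After quantile normalization it was at 0.33 (adjusted p = 0.27). U12 rose from 103 ± 28 to 177 ± 27 RPM (0.80 ± 0.21, adjusted p = 0.015 in limma). TMM scaling left it at 0.41 (adjusted p = 0.17) and quantile normalization at 0.65 (adjusted p = 0.078). U11 was at 93.6 ± 11.9 and 117 ± 19 RPM, a change of 0.31 ± 0.16 on the log2 scale (limma adjusted p = 0.14), and of -0.08 after TMM scaling. Scaling to the row total made it 0.60 (adjusted p = 0.015), a total without the 5 largest rows 0.63 (adjusted p = 0.018), and leaving out iMLL-ENL replicate 2 made it 0.43 (adjusted p = 0.047). U6atac was at 70.5 ± 43.8 and 47.3 ± 7.2 RPM, with a log2 fold change of -0.42 ± 0.32 (adjusted p = 0.30 in limma). Like U6, U6atac was highest in WT replicate 2, at 136 RPM against 47.9 to 49.9 RPM in the other WT libraries. U4 was at a higher log2 fold change than each of these 4 families, though the differences between families were not tested.

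**Figure D4:**
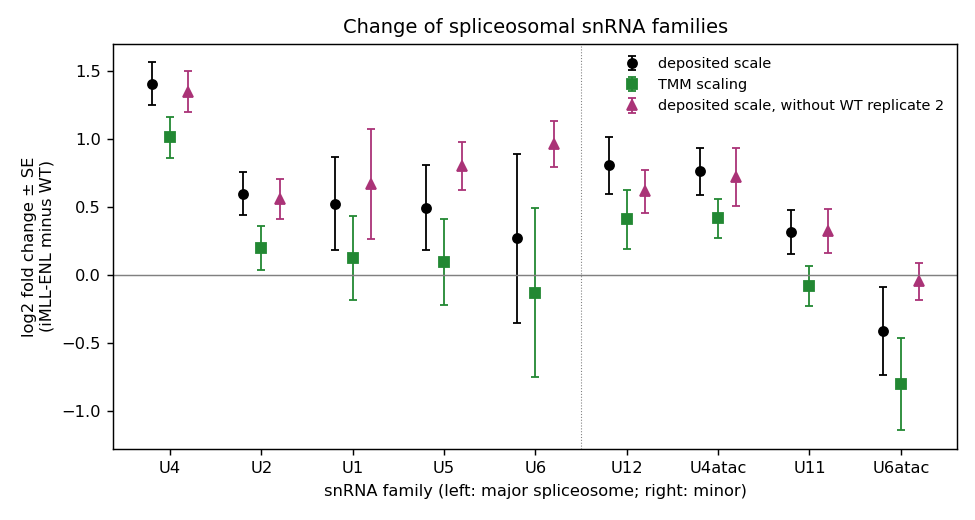
log2 fold change (iMLL-ENL minus WT, limma, bars are SE) of the summed spliceosomal snRNA families on the deposited scale, after TMM scaling and without WT replicate 2. U4 lies highest in all 3 settings, at 1.40, 1.01 and 1.34, and U6 moves most between them, from 0.27 to -0.13 and 0.96.

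The scaRNAs (small Cajal body RNAs) guide the methylation and pseudouridylation of spliceosomal snRNAs. Of 15 scaRNA rows 8 passed the filter, 3 were called higher, 0 lower and 5 did not pass the test in limma. Their median log2 fold change was -0.04, against 0.31 over all tested rows. SCARNA7.1-201 went from 46.1 ± 6.2 to 82.4 ± 11.9 RPM (SD, n = 4, log2 fold change 0.82 ± 0.16, adjusted p = 0.0094 in limma). SCARNA1.1-201 was at 52.0 ± 40.7 and 35.6 ± 6.3 RPM (-0.29 ± 0.42, adjusted p = 0.64 in limma). WT replicate 2 held 112 RPM of it against 23.8 to 37.7 RPM in the other WT libraries, and without that library the log2 fold change was 0.16 (adjusted p = 0.50).

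Rows outside the family were ranked by the Pearson correlation of log2(RPM + 1) with the U4 sum over the 8 libraries, with at most 1 row per family. The nearest were Y_RNA.6-201 (r = 0.966), a Y RNA bound by the Ro60 protein, tRNA719-GluCTC (0.960), tRNA2022-AlaTGC (0.956), tRNA622-AlaCGC (0.956) and the box C/D snoRNA SNORD97.1-201 (0.947). Spearman's rho for the same rows was 0.857, 0.738, 0.929, 0.810 and 0.810. All 8 points share their library scale and fall into 2 groups that do not overlap in U4, so these values mostly follow the difference between the groups and are a description. In each of these 5 rows the iMLL-ENL libraries lay above the WT libraries, with ratios of means from 1.81 (tRNA719-GluCTC) to 5.97 (Y_RNA.6-201). The way the rows were chosen made this likely, and 29.3% of all 964 rows show it.

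In the authors' deposited table, 2 of the 5 U4 rows had a false discovery rate (FDR) under 0.05, where 4.56% of the 964 rows were called higher. The authors' deposited table gives U4.44-201 a log2 fold change of 1.26 (FDR = 0.011) and U4.46-201 one of 1.04 (FDR = 0.029). It gives U4.4-201 0.91 (FDR = 0.24), U4.41-201 0.49 (FDR = 0.45) and U4.22-201 0.36 (FDR = 0.68) in the authors' deposited table. The order of the 5 rows by log2 fold change is the same in the authors' deposited table and in the fit of all rows here. In all, the authors' deposited table calls 44 rows higher and 115 lower. Of all 193 U6 rows the authors' deposited table calls 1 higher and 32 lower. The fit here calls 5 higher and 0 lower, but only of the 87 U6 rows past the filter. These counts differ in rows and in scale and are not a like comparison. Over all rows the median difference in log2 fold change, the authors' deposited table minus the fit here, was -0.40.

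The scale of the libraries corresponds to an estimated 5910000 to 7700000 reads in WT and 7620000 to 9270000 in iMLL-ENL. The rows analysed here took 30% to 38.4% of it in WT and 26.0% to 29.2% in iMLL-ENL, with no overlap. The TMM factors did not overlap either, at 0.782 to 0.921 in WT and 1.07 to 1.24 in iMLL-ENL. U4 as a sum kept its call after TMM scaling, as given above. The part of these differences in the other results was not tested beyond the scalings given. The TMM factor was 0.868 in WT replicate 2 and 1.11 in iMLL-ENL replicate 1. Divided by these, U4.41-201 (6.10 and 6.43 RPM) was higher in the WT library. Factors of 0.782 in WT replicate 3 and 1.24 in iMLL-ENL replicate 4 did the same for U4.22-201 (2.37 and 2.88 RPM). The groups therefore overlapped in these 2 rows after TMM scaling. Over the tested rows WT replicate 2 stood apart, with a mean correlation of 0.908 with its own group; the lowest such mean elsewhere was 0.955 in WT and 0.990 in iMLL-ENL. The log2 fold change of U4 lay between 1.29 and 1.52 when each library was left out in turn, 1.34 without WT replicate 2.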

How the data were processed

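Libraries were made from total RNA with the QIAseq miRNA kit, per the labels' protocols. The deposited table gives 1 value per library and row, named as TPM but found here to be RPM, since all rows of a library share 1 step. The authors also deposited their own test of each row: log2 fold change, log2 CPM averaged over libraries, p-value and FDR, per the file headers. Build GRCm38 comes from the submitters' processing notes; no source used here states the aligner, the annotation or how multiply mapped reads and molecular indexes were handled.

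Rows were tested on log2(RPM + 1) with limma 3.58.1 (R 4.3.3, statmod 1.5.0; trended, robust prior, two-sided, Benjamini-Hochberg at 0.05 over all 633 rows with 10 RPM in at least 4 libraries), and sums over 67 families likewise without a filter. The test was tried on simulated data. Exact two-sided permutation tests over 70 assignments of libraries served for 5 sums and 4 log2 ratios (Python 3.11.15, numpy 2.4.6). Named were all U4 rows, the other spliceosomal families with the most abundant row of U6, U5, U2 and U1, the 2 most abundant scaRNA rows, and the 5 rows nearest to U4. Members and lists were chosen with earlier results of these data known. No count test was run. A sequence is not reported here.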

Additional observations from a re-analysis of the deposited data

Results flagged for a closer look

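Of 36 groups of 4 libraries checked for a value far from the rest, 2 were marked, where chance marks about 1 in 20. The count alone is close to the number expected by chance. Both marks fall in WT replicate 2, however, which also had the lowest mean correlation with its own group (0.908). Summed U6 was at 6627 RPM in WT replicate 2 against 747 to 1187 RPM in the other WT libraries. Summed U6atac was at 136 RPM in the same library against 47.9 to 49.9 RPM in the others. No U4 row and no U4 sum was marked.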

How the results depend on the processing

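U4 as a sum kept its direction and its call in limma under all 17 alternatives, from 1.01 (TMM scaling) to 1.72 (scaled to a total that left out the 5 largest rows) on the log2 scale. U4.46-201 and U4.44-201 did so under all 19. The count of U4 rows called stayed at 2 without each library in turn. It went from 2 to 5 with no filter on low values, a fit run on the deposited scale only. The replicate numbers were not taken to pair the libraries, though a pairing was neither shown nor excluded. The correlation of deviations was above 0.1 in 3 of 4 same-numbered pairs (0.389, 0.286, -0.133 and 0.420). Other pairs ran from -0.44 to 0.29, with a mean of -0.07. Summed U1 was higher in the iMLL-ENL library in all 4 same-numbered pairs. With a replicate block U4 was at 1.40 (adjusted p = 0.0041), U1 at 0.52 (adjusted p = 0.058), and 193 rows were called.

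Over all rows 183 were called, against 278 with each library scaled to its rows' total, 284 when that total left out its 5 largest rows, 282 without a filter, and 59 to 358 with each library left out. On the deposited scale 129 rows were higher and 54 lower; TMM scaling gave 35 and 129. The log2 ratio of mean U6 sums, -0.34, turned to 0.057 with each library scaled to its rows' total and ran from -0.64 to 0.94 with each library left out, the last without WT replicate 2. That of U5 turned to -0.014 after TMM scaling. In limma U6 was at -0.13 after TMM scaling, -0.16 after quantile normalization, -0.087 without WT replicate 3 and up to 0.96 without WT replicate 2, and U11 at -0.083 after TMM scaling. With the most abundant row of each family, the ratio differences of U4 to U5 (1.27), U2 (0.67) and U1 (0.94) passed the test. With rows of a mean of 10 RPM or more summed, no ratio passed (adjusted exact permutation p from 0.0571 to 0.0857). Designs without 1 library (smallest exact p 0.0571) or with a block (0.125) cannot pass 0.05 for sums and ratios, so these were read by value. The count test listed as an alternative was not run. Depth limits U4.22-201 and U4.4-201, at 5 to 35 reads a library.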
